A study of Mus musculus with 2 samples.

Results

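The genes described here are Cc2d1b, Tmem267, Ccl28, Rtl8b, Ppfia3, Cirbp, Snhg11, Snapc1, Gng5 and Nav2, 10 of the 19059 genes measured in dorsal root ganglion cells, found by symbol. They were chosen on the same counts that are described below, because their levels appeared shifted to the same side in every cell class of 1 library relative to the other. Directions and ratios therefore describe the members and test nothing. The dorsal root ganglia, beside the spinal cord, hold the cell bodies of the sensory neurons that serve skin and muscle, wrapped by satellite glia and joined by Schwann cells, connective tissue, vessels and macrophages. The ganglia of cervical levels C2 to C7 were taken from mice fixed in 4% paraformaldehyde, and dissociated cells were profiled with a fixed-RNA kit, in which pairs of probes bind each transcript and molecules are counted by unique molecular identifier (UMI).

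Mice of the genotype Foxp3 CreER; Penk fl/WT gave the control library. The second library, Treg_Penk_KO, was made from Foxp3 CreER; Penk fl/fl mice. Both groups thus carried the Cre driver and at least 1 floxed allele of Penk, the gene of the opioid precursor proenkephalin, and both received tamoxifen, which starts the Cre, and 3 days of imiquimod, a skin irritant. Foxp3 marks regulatory T cells, so the driver names those cells and not the neurons or glia of the ganglion. Each group was 1 pooled library, and the labels state neither the number of animals in a pool nor their age or sex. No difference below has a replicate check, and every interval is an exact 95% interval for counting error alone.

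The members have unrelated known roles. Cc2d1b, the paralogue of Cc2d1a, binds CHMP4 proteins of the ESCRT-III membrane-remodelling machinery. Ppfia3 encodes liprin alpha 3, a scaffold of the presynaptic active zone, and Nav2 encodes neuron navigator 2, a protein of the cytoskeleton in growing neurites. Gng5 encodes a gamma subunit of heterotrimeric G proteins. Snapc1 encodes a subunit of the complex that starts transcription of small nuclear RNA genes, Cirbp an RNA-binding protein induced by mild cold, and Snhg11 is a long noncoding RNA that hosts small nucleolar RNAs and is abundant in neurons. Ccl28 encodes a chemokine of mucosal epithelia that acts on CCR10 and CCR3, Rtl8b is a gene of the X chromosome derived from a retrotransposon Gag sequence, and Tmem267 encodes a membrane protein.

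On GRCm39, the genome build of the counts, the members lie on 8 chromosomes. Tmem267 (chr13:119624575-120072595, plus strand) and Ccl28 (chr13:120085355-120115895, plus strand) are next to each other with 12.8 kb between them. Ppfia3 (chr7:44988545-45016901, minus strand) and Nav2 (chr7:48558464-49259838, plus strand) are 3.54 Mb apart. Cc2d1b (chr4:108476527-108492884) shares a chromosome with Penk, 104 Mb away. The 250 bases before the annotated start of the main transcript were read from the genome for each member, and 3 of these windows are printed, those of the neighbouring pair and that of Cirbp, whose known cold-response letters are in it. The windows are chr13:119624325-119624574 for Tmem267, chr13:120085105-120085354 for Ccl28 and chr10:80003362-80003611 for Cirbp, all on the plus strand and written 5′ to 3′. Capitals mark the searched motifs.
Tmem267: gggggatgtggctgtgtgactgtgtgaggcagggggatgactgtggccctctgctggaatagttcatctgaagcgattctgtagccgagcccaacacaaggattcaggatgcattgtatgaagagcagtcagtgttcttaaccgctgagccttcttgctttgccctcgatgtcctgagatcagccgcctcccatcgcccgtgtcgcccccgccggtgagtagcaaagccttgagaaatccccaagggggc
Ccl28: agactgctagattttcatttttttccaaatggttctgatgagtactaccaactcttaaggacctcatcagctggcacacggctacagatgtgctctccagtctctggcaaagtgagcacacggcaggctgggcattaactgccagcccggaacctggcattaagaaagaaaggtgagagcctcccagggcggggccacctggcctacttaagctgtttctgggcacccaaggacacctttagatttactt
Cirbp: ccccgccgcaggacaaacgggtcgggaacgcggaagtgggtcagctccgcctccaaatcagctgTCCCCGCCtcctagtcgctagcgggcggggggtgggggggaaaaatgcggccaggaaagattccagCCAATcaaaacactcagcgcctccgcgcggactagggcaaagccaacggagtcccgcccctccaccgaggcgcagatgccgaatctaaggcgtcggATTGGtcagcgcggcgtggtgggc
The searched letters were TCCCCGCC, the mild-cold response element, TGACGTCA, the cAMP response element, CCAAT and TATAAA, each on both strands. The letters TCCCCGCC are present in the Cirbp window at positions -186 to -179 from the start and in no other member's window, and 5.13% of 19043 windows of the same length hold them. CCAAT, read as ATTGG on the other strand, is in the windows of 5 members, Cc2d1b, Ppfia3, Nav2, Cirbp and Rtl8b, against 35.9% of all windows. Neither TGACGTCA (1.66% of windows) nor TATAAA (11.1%) is in a member's window. The Tmem267 and Ccl28 windows hold none of the 4 motifs, and their GC contents are 57.2% and 50.8% beside a median of 54.0% over all windows.

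The control library held 259136217 UMIs in 15710 barcodes and the Treg_Penk_KO library 156441497 UMIs in 12067 barcodes. After barcodes with few UMIs or genes were left out, 15690 and 12053 cells were kept. The libraries shared 4717 droplets, inferred from a matching droplet part of the barcode. The cells in them were 30.1% of control and 39.1% of Treg_Penk_KO cells. Penk, the targeted gene, had 582 UMIs in control and 4 in Treg_Penk_KO cells, and in neuron-like cells, which the driver does not name, it had 338 and 1. Foxp3 had 10 and 5 UMIs, so the driver's cells were hardly sampled. The 4 Y-linked genes measured had ratios of Treg_Penk_KO to control between 0.948 and 1.07 over all cells.

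Over all cells, 7 members were lower and 3 higher in the Treg_Penk_KO library. A ratio was counted as past the step when it was at least 1.2 or at most its inverse, 0.833, in genes with at least 50 UMIs over both libraries. By this rule 3.99% of 14514 genes were lower and 6.93% higher, and since the members were chosen on this contrast nothing is read from their share. Among the members with membrane and synaptic roles, Cc2d1b had 13318 UMIs (51.4 CPM, the standard scaling of counts to an equal library total) in control cells and 4400 (28.1 CPM) in Treg_Penk_KO cells, a ratio of 0.547 (0.529 to 0.566). Ppfia3 had 3938 UMIs (15.2 CPM) and 1202 (7.68 CPM), a ratio of 0.506 (0.474 to 0.540) and the lowest of the 10. Tmem267 had 11686 UMIs (45.1 CPM) and 4032 (25.8 CPM), a ratio of 0.572 (0.551 to 0.592). These 3 genes stood 1.83, 1.98 and 1.75-fold lower in the Treg_Penk_KO library.

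Ccl28, next to Tmem267 on the chromosome, was the most thinly counted member, with 1642 UMIs (6.34 CPM) in control cells and 596 (3.81 CPM) in Treg_Penk_KO cells, a ratio of 0.601 (0.547 to 0.661). Rtl8b had 24971 UMIs (96.4 CPM) and 9017 (57.6 CPM), a ratio of 0.598 (0.584 to 0.613). Its relatives Rtl8a and Rtl8c are very similar in sequence, so the Rtl8b count is uncertain. Both were on the list of 12 retrotransposon-derived genes, of which 10 were measured, and no value for them is given here. The other 2 lower members, whose products work with or as RNA, were shifted less. Cirbp had 27959 UMIs (108 CPM) and 12508 (80.0 CPM), a ratio of 0.741 (0.726 to 0.757), and Snhg11 had 62482 (241 CPM) and 27694 (177 CPM), a ratio of 0.734 (0.724 to 0.745).

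The 3 higher members were a transcription factor subunit, a signalling subunit and a cytoskeletal protein. Snapc1 had 8246 UMIs (31.8 CPM) in control cells and 7433 (47.5 CPM) in Treg_Penk_KO cells, a ratio of 1.49 (1.45 to 1.54). Gng5 had 2178 UMIs (8.41 CPM) and 1975 (12.6 CPM), a ratio of 1.502 (1.41 to 1.60). Nav2 had 4352 UMIs (16.8 CPM) and 4740 (30.3 CPM), a ratio of 1.80 (1.73 to 1.88), and was the only one of the 10 with more UMIs in the smaller library. The Poisson intervals of the libraries did not overlap for any of the 10, nor for 20.5% (higher) and 17.2% (lower) of all 14514 genes, so interval separation is common in these libraries.

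**Figure D1:**
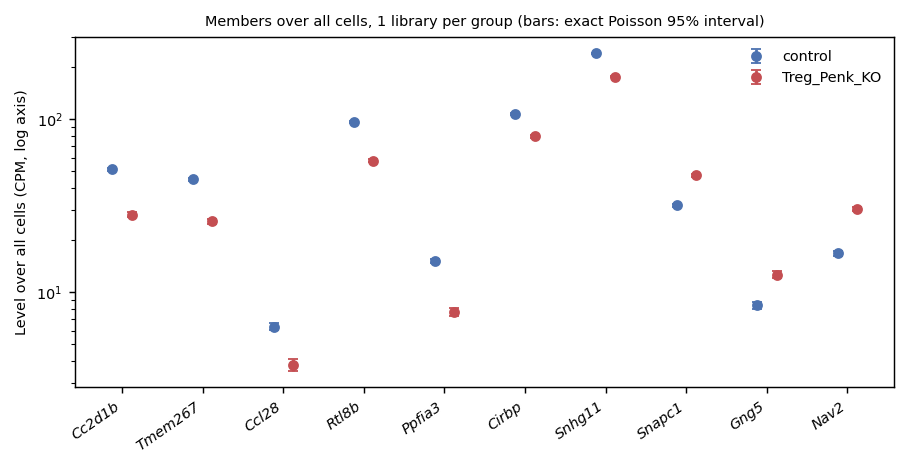
Level of each member over all cells in CPM (log axis) in the control and the Treg_Penk_KO library, 1 point per library with its exact Poisson 95% interval. The control point is higher for the 7 genes from Cc2d1b to Snhg11 and lower for Snapc1, Gng5 and Nav2.

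Cells were grouped into classes by marker genes, and the 8 broad classes that held 100 cells or more per library were used. They were neuron-like (5983 control and 4645 Treg_Penk_KO cells), satellite glia-like (1962 and 1456), myelinating Schwann-like (2412 and 1801), fibroblast-like (1088 and 858), perineurial-like (572 and 503), endothelial-like (616 and 525), mural-like (225 and 127) and macrophage-like (710 and 557). The satellite glia-like class joined a cluster of 1440 and 1121 cells with another of 522 and 335 cells. Median UMIs per cell were 923.5 and 934 in the former and 18700 and 16010 in the latter. UMIs were summed over cells, so each cell of the latter weighed more in the ratios. A member had at least 50 UMIs over both libraries in 60 of its pairings with a class. In all 60 the ratio was on the side it had over all cells, and in 49 the interval did not include 1. Over all pairings of a gene and a class with enough UMIs the same held for 65.2% and 15.4%, and nothing is read from the difference, since the classes were used to choose the members. In the 20 pairings with fewer UMIs, 18 were on that side, and the exceptions were in mural-like cells, Ccl28 with 0 and 1 UMIs and Gng5 with 9 and 2. Over all 9496 genes with enough UMIs in at least 5 of the classes, 3.96% were higher and 3.21% lower in every such class.

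Past the step in every class that had enough UMIs were 12 higher (0.126%) and 10 lower genes (0.105%) of the 9496. Cc2d1b, Tmem267, Rtl8b and Snhg11 were 4 of those 10, and no member was among the 12. Ccl28, Ppfia3 and Gng5 had enough UMIs in only 3, 4 and 4 classes. They were thus not among the 9496 genes and could not be counted. The pairings nearest the step were Snhg11 in perineurial-like cells, inside at 0.823, and Gng5 and Cirbp in endothelial-like cells, outside at 1.19 and 0.840.

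All 10 members had enough UMIs in the 3 largest classes and all were past the step there, 3 higher and 7 lower. The background was 3.67% of genes higher and 6.78% lower in neuron-like cells, 6.38% and 6.94% in satellite glia-like cells, and 8.24% and 6.66% in myelinating Schwann-like cells. The smaller classes had wider backgrounds. In fibroblast-like cells 1 member was higher and 5 lower of 7 (background 14.8% and 14.5%), in perineurial-like cells 2 and 5 of 7 (17.4% and 15.7%), and in endothelial-like cells 1 and 5 of 9 (8.99% and 9.95%). In macrophage-like cells 1 was higher and 4 lower of 6 (17.1% and 16.7%), and in mural-like cells Snhg11 alone had enough UMIs and was lower (23.1% and 23.2%). The median log2 ratio of all genes with enough UMIs lay between -0.0091 and 0.016 in the 8 classes.

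Cc2d1b was lower in each of the 7 classes where it had enough UMIs. Its level was 53.6 CPM in control and 29.5 CPM in Treg_Penk_KO neuron-like cells, 38.6 and 20.8 in satellite glia-like cells, 56.6 and 28.8 in myelinating Schwann-like cells and 59.4 and 32.9 in macrophage-like cells. Its ratio ran from 0.454 in fibroblast-like cells (83 and 32 UMIs) to 0.572 in endothelial-like cells (201 and 93 UMIs), and each of the 7 intervals excluded 1. Ppfia3, the synaptic scaffold gene, was lower in glia-like as in neuron-like cells. It had 2924 and 927 UMIs in neuron-like cells, a ratio of 0.498 (0.462 to 0.536), and 142 and 37 in satellite glia-like cells, a ratio of 0.426 (0.288 to 0.615). Its ratios were 0.570 in myelinating Schwann-like and 0.571 in endothelial-like cells, the last 1.04 when each cell had equal weight. In satellite glia-like cells Ppfia3 stood at 58.1% of its neuron-like level in the control and 49.7% in Treg_Penk_KO. The 14 neuron markers summed to 47.4% and 46.4% of theirs there. In myelinating Schwann-like cells Ppfia3 stood at 95.6% and 109.5%, beside 71.6% and 68.2% for those markers. The part of neuronal transcripts in these ratios was not tested.

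Tmem267 ratios lay between 0.542 in endothelial-like cells (169 and 74 UMIs) and 0.720 in perineurial-like cells (35 and 22 UMIs) over 6 classes. In fibroblast-like and perineurial-like cells the interval included 1, and in macrophage-like cells it had only 26 and 19 UMIs, a ratio of 0.904 (0.473 to 1.70). Ccl28 could be followed in 3 classes, with 1152 and 464 UMIs in neuron-like, 101 and 41 in satellite glia-like and 62 and 23 in myelinating Schwann-like cells. Its ratios there were 0.633, 0.663 and 0.628, the last with an interval from 0.371 to 1.03. Rtl8b ratios ran from 0.595 in endothelial-like cells (445 and 214 UMIs) to 0.775 in macrophage-like cells (75 and 47 UMIs), where the interval reached 1.13.

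Cirbp, the cold-inducible gene, was lower in 7 of 7 classes and every interval excluded 1. It stood at 106 CPM in control and 77.0 CPM in Treg_Penk_KO neuron-like cells, 148 and 102 in satellite glia-like cells and 143 and 120 in endothelial-like cells. The endothelial-like ratio, 0.840 (0.745 to 0.946), was the closest to 1, and the perineurial-like ratio, 0.606 (0.459 to 0.795), the farthest. Snhg11 was the only member with enough UMIs in all 8 classes. It had 270.1 and 195 CPM in neuron-like cells and 113 and 87.8 CPM in satellite glia-like cells, ratios of 0.723 and 0.776. In mural-like cells it had 63 and 10 UMIs, a ratio of 0.324 (0.148 to 0.636). The endothelial-like ratio of 0.659 became 1.31 when classes were drawn from marker counts per cell.

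Snapc1 ratios differed more between the small classes than between the large ones. It had 5857 and 5746 UMIs in neuron-like cells, a ratio of 1.54 (1.49 to 1.60), and 50 and 46 in fibroblast-like cells, a ratio of 1.08 (0.711 to 1.65). In perineurial-like cells, with 27 and 48 UMIs, the ratio was 2.04 (1.25 to 3.40). The ratio in macrophage-like cells was 1.17 with an interval that included 1, and 0.754 when each cell had equal weight. Gng5, the G protein subunit, had similar ratios in the 3 largest classes, 1.49 in neuron-like, 1.42 in satellite glia-like and 1.48 in myelinating Schwann-like cells. In endothelial-like cells it had 109 and 105 UMIs, a ratio of 1.19 (0.903 to 1.57).

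Nav2 had the widest range of levels among classes of the 10 members. In the control its level was 9.95 CPM in neuron-like cells, 72.4 in satellite glia-like cells, 44.7 in perineurial-like and 43.7 in endothelial-like cells, and it was 7.28-fold higher in satellite glia-like than in neuron-like cells. In the Treg_Penk_KO library these 4 levels were 22.5, 97.0, 68.3 and 51.5 CPM. The ratio was 2.26 (2.13 to 2.40) in neuron-like cells and 1.34 (1.22 to 1.47) in satellite glia-like cells, and these intervals did not overlap. In endothelial-like cells, with 210 and 200 UMIs, the ratio of 1.18 had an interval from 0.966 to 1.44. Cells with markers of another class were 11712 of 15690 control and 8844 of 12053 Treg_Penk_KO cells. When they were left out, the satellite glia-like ratio was 0.917. In that setting only 12 pairings of member and class had enough UMIs. Nav2 was thus on 1 side in every class when all cells were kept, with a size that differed between classes beyond counting error, and with 1 library per group that difference was not tested over animals.

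**Figure D2:**
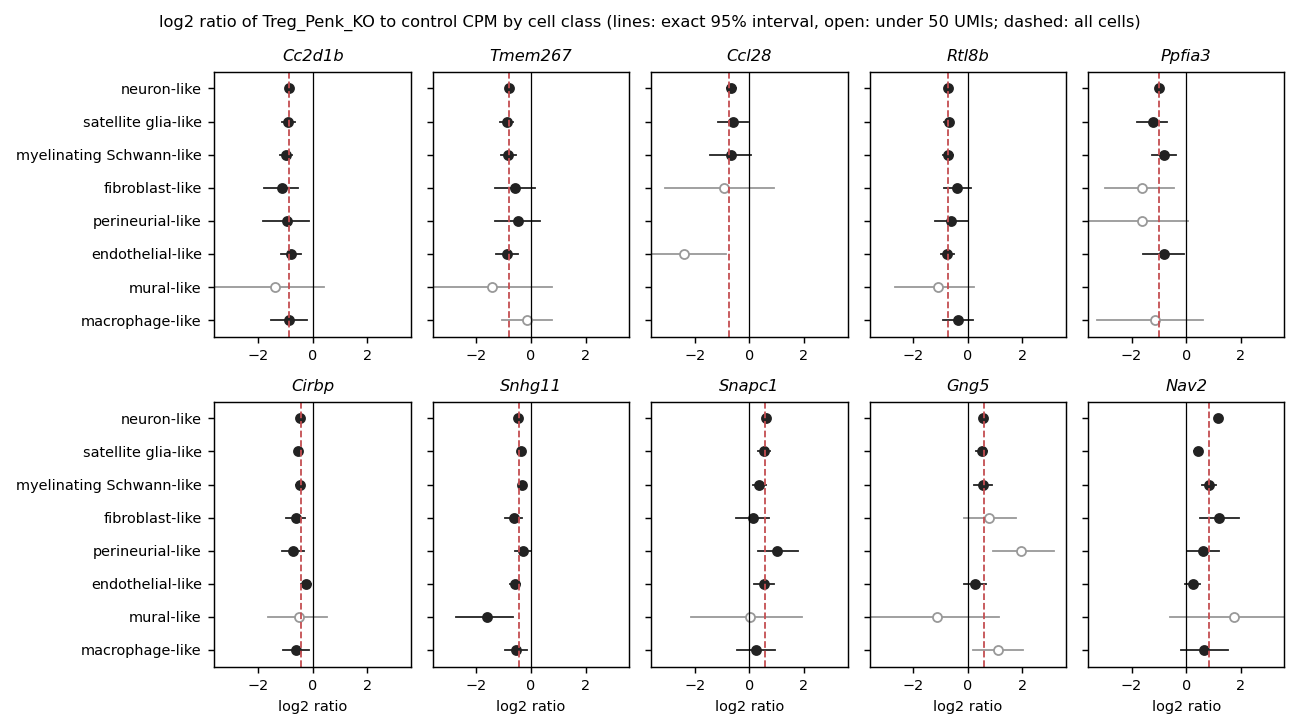
The log2 ratio of Treg_Penk_KO to control CPM for each member in 8 broad classes, with exact 95% intervals, open points for under 50 UMIs, and a dashed line at the ratio over all cells. No point is drawn where a library had 0 UMIs and lines end at the axis limits. Every filled point lies on the same side of 0 as the dashed line.

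Within neuron-like cells the shifts were followed over 9 subtypes named by their markers, of 205 to 1532 control and 141 to 1235 Treg_Penk_KO cells each. The ratio was on the overall side in 90 of 90 pairings of member and subtype, 88 of them with at least 50 UMIs, and the interval excluded 1 in 82. Among all 99561 pairings of gene and subtype with that many UMIs, 63.9% were on the side of the gene's ratio over all cells and 15% had an interval clear of 1 there. The subtypes hold the same cells on which the members were chosen, so their count is a description. Rtl8b varied least, from 0.564 in the Sst/Nppb pruriceptor-like to 0.649 in the Trpm8 cold-like neurons. Ppfia3 ran from 0.343 (118 and 32 UMIs) in Sst/Nppb pruriceptor-like neurons to 0.568 (53 and 23 UMIs) in Trpm8 cold-like neurons. Ccl28 was near 1 in proprioceptor-like neurons, with 107 and 54 UMIs and a ratio of 0.946 (0.669 to 1.32). Gng5 was nearest 1 in peptidergic C-like neurons, with 91 and 74 UMIs and a ratio of 1.06 (0.770 to 1.46).

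Nav2 had its highest ratio in Mrgpra3 pruriceptor-like neurons. The marker list behind this name also holds Mrgprb4 and Mrgprx1. Those genes led the top genes of the cluster, and Mrgpra3 was not among its top genes. Nav2 had 20 UMIs (1.996 CPM) in control cells of this subtype and 145 (17.2 CPM) in its Treg_Penk_KO cells, a ratio of 8.62 (5.38 to 14.5). The UMIs came from 20 of 341 and 56 of 274 cells of similar median depth (12468 and 11628 UMIs), and no cell held more than 9. In Mrgprd nonpeptidergic-like neurons, with 273 and 552 UMIs, the ratio was 3.18 (2.74 to 3.69). The other 7 subtypes had ratios from 1.52 in Trpm8 cold-like to 2.40 in peptidergic A-fibre-like neurons. The control levels of Nav2 were lowest in the Mrgpra3 and Mrgprd subtypes, 1.996 and 5.63 CPM, while the Treg_Penk_KO levels, 17.2 and 17.9 CPM, were close to those of proprioceptor-like (21.5 CPM) and Trpm8 cold-like neurons (17.3 CPM).

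**Figure D3:**
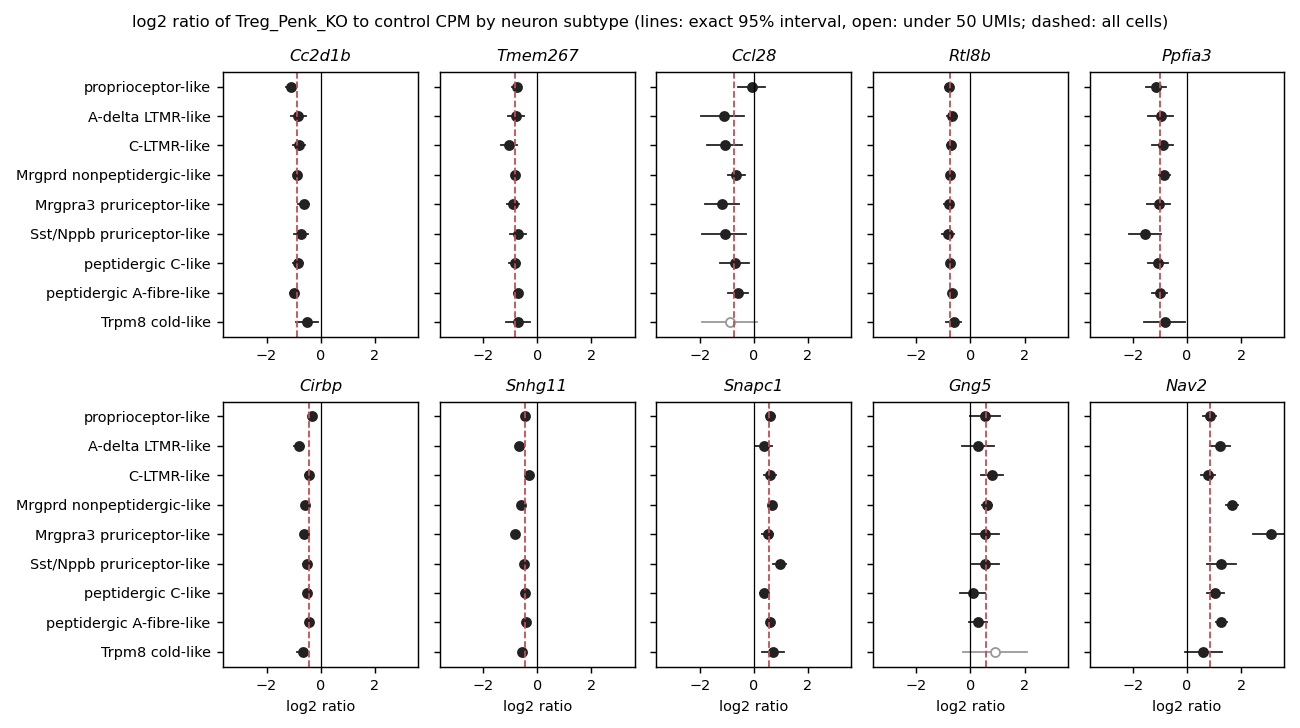
The log2 ratio of Treg_Penk_KO to control CPM for each member in 9 neuron subtypes, drawn as in the plot by broad class. Every point lies on the same side of 0 as the dashed line, and Nav2 lies farthest from it in Mrgpra3 pruriceptor-like (ratio 8.62) and Mrgprd nonpeptidergic-like neurons (3.18).

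In the 5 clusters that could not be named by markers, 31 of 33 pairings of member and cluster with at least 50 UMIs were on the overall side, as were 57.8% of those of all genes. The exceptions were Rtl8b in cluster 10 and Nav2 in cluster 28, the latter with 55 and 24 UMIs and a ratio of 0.997 (0.590 to 1.64). Cluster 10, led by haemoglobin genes, had Cc2d1b at 23 and 21 UMIs, a ratio of 1.101 (0.580 to 2.08), Rtl8b at 47 and 39, a ratio of 1.00 (0.638 to 1.56), and Nav2 at 24 and 14, a ratio of 0.704 (0.337 to 1.42). Cc2d1b and Nav2 were under the minimum of 50 UMIs there. Each of these 3 intervals included 1 and left out the gene's ratio over all cells. Snhg11 was at its highest level there, with 724 UMIs (1032 CPM) and 330 (567.5 CPM), a ratio of 0.550 (0.481 to 0.627). In cluster 20, of 388 and 200 very deep cells with markers of several types, all 10 members were on their overall side, from 0.508 for Cc2d1b to 1.87 for Nav2.

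Depth per cell differed between the libraries, with medians of 10431 and 7838 UMIs in neuron-like cells, so the members were compared at equal depth. When each cell was thinned to 500 UMIs, all 10 members stayed on their side over all cells, with ratios from 0.398 (121 and 37 UMIs) for Ppfia3 to 1.64 (206 and 260 UMIs) for Nav2. The ratio was 0.532 for Cc2d1b and 0.661 for Snhg11. By class, 29 of 30 pairings with enough UMIs were on the overall side, and the exception was Snapc1 in satellite glia-like cells, with 33 and 24 UMIs and a ratio of 0.980 (0.554 to 1.71). The unthinned ratio there was 1.45 (1.25 to 1.68).

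Thinning to 1500 UMIs left out 6128 control and 4786 Treg_Penk_KO cells that were shallower. All 10 were again on their side over all cells, from 0.474 for Ccl28 (86 and 31 UMIs) to 1.78 for Nav2 (285 and 385 UMIs). By class, 33 of 35 pairings were. The exceptions were Snapc1 in myelinating Schwann-like cells at 0.947 and Snhg11 in perineurial-like cells, with 30 and 38 UMIs and a ratio of 1.35 (0.815 to 2.26). At 500 UMIs the latter ratio was 0.958 (0.702 to 1.30) on 95 and 80 UMIs, and the unthinned ratio of 0.823 had an interval (0.673 to 1.01) that already included 1. The share of cells with a Cc2d1b UMI was 28.8% in control and 19.0% in Treg_Penk_KO cells unthinned, and 2.42% and 1.27% at 500 UMIs. For Nav2 these shares were 14.6% and 18.2% unthinned, and 1.29% and 2.13% at 500 UMIs. No class here is known to lack either gene, so a background share was not available.

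Splitting all cells into 5 bins of depth gave the overall side in 50 of 50 pairings of member and bin, with 46 intervals clear of 1. With at least 50 UMIs there were 48 such pairings, 45 of them with an interval clear of 1. For all genes, 68% of the pairings with that many UMIs were on the overall side and 19.7% had an interval clear of 1 on it. The bins hold the cells on which the members were chosen, and nothing more is read from these counts. Cc2d1b ratios were 0.454 in cells of 500 to 1000 UMIs (147 and 52 UMIs of the gene) and 0.549 in cells of at least 20000 UMIs (11013 and 3445). Nav2 ratios were 1.99 and 1.81 in the same bins. Ccl28 had 12 and 9 UMIs in the shallowest bin, too few to place its ratio of 0.963 (0.358 to 2.49). The other intervals that included 1 were those of Tmem267 and Snapc1 in the shallowest bin and Gng5 in cells of 1000 to 2000 UMIs.

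**Figure D4:**
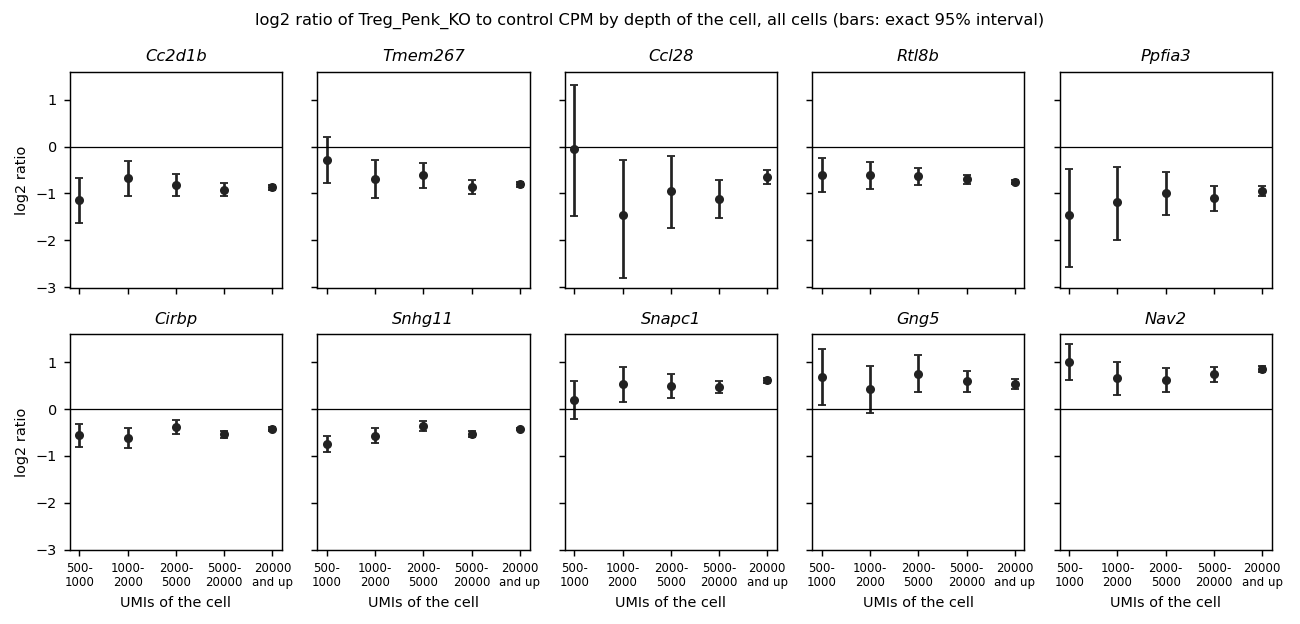
The log2 ratio of Treg_Penk_KO to control CPM for each member over all cells, in 5 bins of UMIs per cell, with exact 95% intervals. All 7 lower members are under 0 and all 3 higher ones above 0 in every bin, with wide intervals in the shallowest bin.

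The ratios were also compared between droplets with a cell of both libraries and droplets with a cell of 1 library only. Cc2d1b had a ratio of 0.546 in shared and 0.551 in single droplets, Rtl8b 0.607 and 0.587, Snhg11 0.732 and 0.741, and Gng5 1.488 and 1.498. Nav2 had the widest gap, 1.72 (1.61 to 1.82) in shared and 1.85 (1.75 to 1.96) in single droplets. Over all cells each member was on the same side in shared and in single droplets. The cause of the shifts was not tested.

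Neuronal transcripts were found in every class. The 14 neuron markers summed to 23830 CPM in control neuron-like cells and 23130 CPM in those of Treg_Penk_KO, and in the other classes to between 47.4% and 71.6% of the neuron-like level in the control and between 46.4% and 68.2% in the Treg_Penk_KO library, with none of the 14 at 0. The ratio of that sum was 0.971 in neuron-like cells and between 0.924 and 1.08 in the others. In control satellite glia-like cells, where the sum was 47.4%, Snhg11 stood at 41.9% of its neuron-like level, Ppfia3 at 58.1%, Cc2d1b at 72.1%, Rtl8b at 80.7%, Snapc1 at 81.4%, Tmem267 at 86.5% and Ccl28 at 105%. Cirbp stood at 140% there, Gng5 at 391.5% and Nav2 at 728%. For the members below the neuron-like level the part of neuronal transcripts in the shift seen in other classes was not tested.

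**Figure D5:**
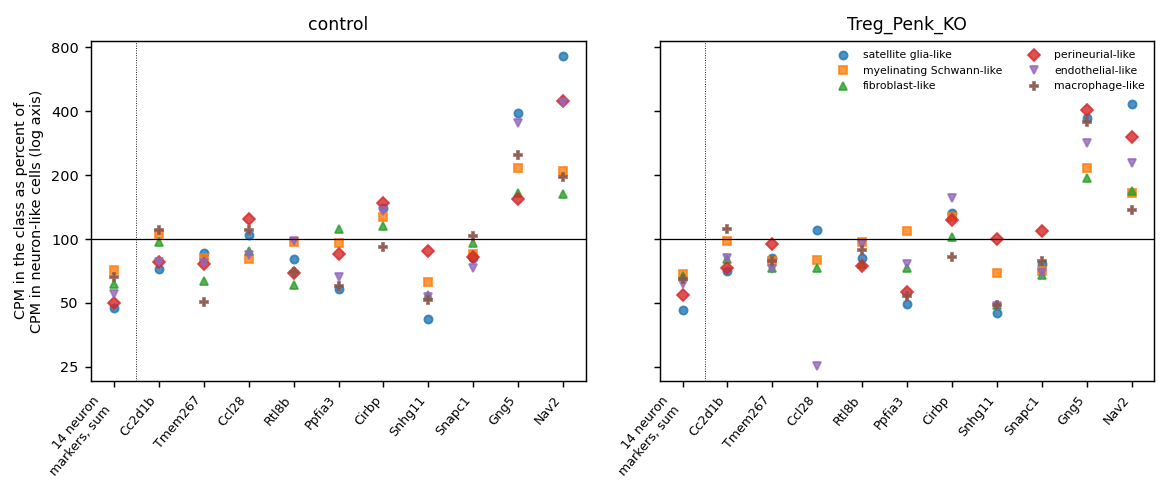
The CPM of each member, and of the sum of 14 neuron markers, in 6 classes as percent of the CPM in neuron-like cells (log axis), with the control on the left and Treg_Penk_KO on the right. Mural-like cells, with few UMIs, and classes where Ccl28 had 0 UMIs are not drawn. In the control Snhg11 lies below the marker sum in 5 of 6 classes and above it in perineurial-like cells. In Treg_Penk_KO it lies further below in fibroblast-like (48.9% against 67.3%), endothelial-like (48.4% against 61.2%) and macrophage-like cells (48.9% against 65.2%). Gng5 and Nav2 lie above 100% in all 6.

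Of the measured genes next to each member on either side, 28 that are not members had enough UMIs, and their ratios over all cells ran from 0.889 to 1.40 with a median of 1.03. Past the step over all cells were 3.99% of all 14514 genes on the lower side and 6.93% on the higher. Of the 28 neighbours none was lower past the step and 4 were higher. Those were Lbp by Snhg11 (1511 and 1278 UMIs, ratio 1.40, 1.30 to 1.51), Prkch by Snapc1 (1707 and 1277, 1.24, 1.15 to 1.33), and, with few UMIs and intervals that included 1, E2f8 by Nav2 (1.33) and Orc1 by Cc2d1b (1.27). On chromosome 13, where Tmem267 and Ccl28 had ratios of 0.572 and 0.601, Paip1 and Nnt on 1 side had ratios of 1.02 and 1.03, and Hmgcs1 and Nim1k on the other 1.03 and 0.941. Zfyve9, which overlaps the end of Cc2d1b on the other strand, had 101 CPM and 95.5 CPM, a ratio of 0.944. Gng5 is overlapped by Spata1 and Rpf1, with ratios of 0.904 and 1.03. The labels and files state no probe positions, so whether a probe reads both genes of an overlapping pair cannot be told. Atp5d and Midn, before Cirbp, had ratios of 0.982 and 0.972, and Hif1a and Syt16, around Snapc1, 1.04 and 1.06.

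The members' functional partners and relatives, in lists compiled for each member's role with earlier results of these data known, were mostly near 1 over all cells. So were most genes, with 3.99% of 14514 lower and 6.93% higher past the step. Of the 14 other genes of the ESCRT-III list, none was past the step over all cells, with a median ratio of 1.02, and Cc2d1a, the paralogue of Cc2d1b, had 52.8 and 52.4 CPM, a ratio of 0.992. Of the 9 partners of Snapc1 none was past the step over all cells, and in the 3 largest classes Tbp alone was, in myelinating Schwann-like cells at 0.803 (0.611 to 1.05). Snapc2, Snapc3 and Snapc5 had ratios of 1.02, 1.06 and 1.07, and Snapc4, the largest subunit of the complex, 0.898. Of the 9 other G gamma subunits with enough UMIs none was past the step over all cells, from Gng7 at 0.893 to Gng11 at 1.18. By class, Gngt2 was lower in neuron-like cells, with 128 and 55 UMIs and a ratio of 0.675 (0.483 to 0.933), and Gng4 in satellite glia-like cells at 0.823. In myelinating Schwann-like cells Gng8 (1.21) and Gng11 (1.27) were higher and Gng13 (0.606) and Gngt2 (0.645) lower past the step, on 42 to 229 control UMIs.

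Among the 5 other liprins, Ppfia2 was higher, with 30.1 and 36.3 CPM and a ratio of 1.21 (1.17 to 1.25), and Ppfia1 and Ppfia4 had ratios of 1.06 and 0.969. Ppfibp2 was lower past the step in satellite glia-like cells, with 134 and 47 UMIs and a ratio of 0.573 (0.402 to 0.805). The other navigators were close to 1 over all cells, Nav1 at 1.05 and Nav3 at 0.997 (0.938 to 1.06). Of the 11 other cold- and heat-inducible genes only Hspa1b, a chaperone of the heat shock response, was past the step over all cells, with 13.01 and 16.5 CPM and a ratio of 1.27. Rbm3, the cold-inducible gene most closely related to Cirbp, had 58.1 and 59.7 CPM over all cells, a ratio of 1.03. In satellite glia-like cells, however, Rbm3 was lower past the step, with 759 and 373 UMIs and a ratio of 0.803 (0.708 to 0.910), and the heat shock genes Hspa1a (1.22) and Hspa1b (1.23) were higher there. Of 8 other retrotransposon-derived genes with enough UMIs, Arc, a neuronal activity gene, was lower with 578 and 287 UMIs (0.823), and Rtl10 with 81 and 38 UMIs (0.777, 0.514 to 1.16). Peg10 stood at 0.857 and Rtl6 at 1.06. Ccl25, another mucosal chemokine, had a ratio of 0.908, and Ccr10, the receptor of CCL28, had 189 and 101 UMIs, a ratio of 0.885 (0.688 to 1.13). Of the long noncoding RNA list only Snhg11 was measured.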

How the data were processed

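Per the labels' protocols and the header of each matrix, the authors made the deposited UMI counts with Cell Ranger on GRCm39. They are whole numbers for each gene and barcode with no normalization. The protocol names version 7.0 and the matrix header 8.0.1. The submitters' processing notes also name Seurat, with no role given. Cells were required to have 500 UMIs and 300 genes. Both libraries were clustered together with scanpy (1.11.5), scipy (1.17.1) and igraph (0.11.9), under Python 3.11.15, on counts scaled to 10000 per cell and log-transformed, with 3000 variable genes, 40 principal components, 15 neighbours and Leiden resolution 1. Clusters were named by resemblance to marker lists, with limits on score and lead (0.35) set after the clusters were seen. No doublet caller was run, and cells with markers of another class were instead removed in an alternative. CPM is the UMIs of a gene in a class of 1 library over all UMIs of that class and library, with an exact Poisson interval, and ratios have exact conditional binomial intervals. With 1 library per group there is no test. Depth was 259136217 and 156441497 UMIs. The calculation was tested on simulated data. The members and all gene lists were chosen with earlier results of these data known. Named genes were the 10 members, the list genes, the 2 measured neighbours on each side, and the 5 other genes per direction whose smallest shift over at least 5 classes was largest. Gene positions and windows were taken from the GRCm39 genome and its GENCODE annotation by gene identifier, which matched 19043 of 19059 genes. Alternatives covered thinning to 500 and 1500 UMIs, equal weight per cell, scaling, droplets, marker-defined classes, UMI minimum and step. The bins of depth and the shared droplets were chosen after seeing the data.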

Additional observations from a re-analysis of the deposited data

How the results depend on the processing

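No paired analysis was possible because each group was 1 library, and for the same reason no replicate could be left out. The counts of genes past the step in every class with enough UMIs, 12 higher and 10 lower, depended on the settings. Fewer than the 9496 genes of the main setting could be tested in several alternatives. The counts were 2 and 1 with cells thinned to 500 UMIs (3668 genes tested) and 3 and 1 at 1500 UMIs (3733). They were 0 and 0 without cells carrying markers of another class (137) and 0 and 5 with classes from marker counts per cell (4480). With a minimum of 100 UMIs they were 7 and 5 (6975), and 0 and 1 when all 8 classes had to have enough UMIs (1760). A step of 1.1 gave 44 and 25 and a step of 1.5 gave 1 and 3, both of 9496. Equal weight per cell gave 17 and 7 and scaling to the class median 12 and 9, also of 9496. Single droplets gave 8 and 7 of 7828. With a minimum of 20 UMIs 17 genes were higher and 16 lower of 11475. None of the genes counted when cells were thinned was among the 12 or the 10. The 10 members on 1 side in every class became 9 and 8 with thinning to 500 and 1500 UMIs, and 7 with equal weight per cell. Of the recomputed ratios of single members, 372 were within the interval of the main ratio, 127 were outside it on the same side of 1, and 7 past the step crossed 1. Those 7 were Snapc1 in satellite glia-like cells at 500 UMIs (0.980), Snapc1 in myelinating Schwann-like (0.947) and Snhg11 in perineurial-like cells (1.35) at 1500 UMIs, Ccl28 in satellite glia-like (1.03) and Ppfia3 in endothelial-like cells (1.04) with equal weight per cell, Nav2 in satellite glia-like cells without mixed cells (0.917), and Snhg11 in endothelial-like cells by marker counts (1.31). Among the 372, Snapc1 in fibroblast-like cells was 0.871 in single droplets and in macrophage-like cells 0.754 with equal weight per cell. The cause was not tested. Depth limits the mural-like, perineurial-like and macrophage-like values most.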

Other observations

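Non-member genes most like the members were ranked by their smallest absolute log2 ratio over classes with enough UMIs (at least 5 classes). On the higher side they were Ccl12, Fcgr4, Clec4a3, Tcf3 and Fcgr1. All 5 stood above the higher members in this ranking, where Nav2 had rank 18 and Snapc1 rank 52. Ccl12, a monocyte-attracting chemokine, had 123 CPM in the control and 257 in the Treg_Penk_KO macrophage-like cells, a ratio of 2.08 (1.68 to 2.59), and 0.390 and 0.726 CPM in neuron-like cells, a ratio of 1.86. The Fc receptor gene Fcgr4 had 368 and 560 CPM in macrophage-like cells, a ratio of 1.52 (1.33 to 1.73), and Fcgr1 248 and 349 CPM, a ratio of 1.41 (1.19 to 1.66). Tcf3, a transcription factor gene, was not highest in macrophage-like cells, and its ratio was 1.38 in neuron-like and 1.93 in endothelial-like cells. The 12 macrophage markers measured summed to 11050 and 11280 CPM in macrophage-like cells, to 32.7 and 32.8 in neuron-like cells and to 324 and 434 in myelinating Schwann-like cells. Their part in the shifts outside macrophage-like cells was not tested.

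On the lower side the genes were Saa3, Hbb-bs, Pcdhga11, Hr and Galnt15. The members Cc2d1b, Tmem267, Rtl8b, Snhg11 and Cirbp had ranks 2, 4, 6, 8 and 11 on that side. Saa3, an acute-phase serum amyloid gene, had 738 CPM in the control and 245 in the Treg_Penk_KO macrophage-like cells, a ratio of 0.332 (0.285 to 0.385), and 18.0 and 2.18 CPM in satellite glia-like cells, a ratio of 0.121. Hbb-bs, a beta globin gene, had 17.1 and 4.79 CPM over all cells, and the 7 erythroid markers summed to 33.1 and 12.0 CPM. Hr, a nuclear receptor corepressor gene, had 19.3 and 13.4 CPM over all cells, a ratio of 0.695 (0.660 to 0.731), and was lower in neuron-like (0.684), satellite glia-like (0.673) and myelinating Schwann-like cells (0.772). Among the 22 genes past the step in every class with enough UMIs, only Ccl12 and Ccl7, neighbouring chemokine genes, lay within 1 Mb of each other.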
